A study of Homo sapiens with 12 samples.

Results

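The UGT1A cluster on chromosome 2 (GRCh38) encodes a family of UDP-glucuronosyltransferases. All 9 protein-coding genes that the annotation places in it were followed, UGT1A1, UGT1A3, UGT1A4, UGT1A5, UGT1A6, UGT1A7, UGT1A8, UGT1A9 and UGT1A10, which are 9 of 61533 genes and 20 of 244939 transcripts measured. The cluster was chosen for its measured RNA levels in these same libraries, which were already known to set the lines apart, so the levels of its genes in the 3 lines are given as a description and with no test.

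Total RNA of 3 human cell lines was sequenced, with 4 libraries for each line and 12 in all. T1074 cells are ovarian epithelial cells immortalized with SV-40, PEO-4 is an ovarian carcinoma line that the labels call a cystadenocarcinoma and the study high-grade serous, and SKOV-3 is an ovarian carcinoma line that the labels call a serous cystadenocarcinoma and the study clear cell. All lines carry the genotype label WT and none was treated, but each grew in a medium of its own (Prigrow I, RPMI 1640 and McCoy's 5A respectively), so that line and medium cannot be told apart, and each condition is 1 line. Each value rests on the expected count, the number of read pairs that RSEM assigned to a transcript, summed for each gene. Levels are given as CPM, the count relative to the library total after TMM scaling, or as TPM, which also divides by transcript length and is used wherever genes or transcripts are compared with each other.

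UDP-glucuronosyltransferases sit in the endoplasmic reticulum and join glucuronic acid, taken from UDP-glucuronic acid, to lipophilic molecules such as bilirubin, steroid hormones and drugs, which makes them soluble enough to be exported. The UGT1A locus makes all its enzymes from a row of alternative first exons. Each first exon has its own promoter and encodes the part that binds the substrate, and each is spliced to the same last exons, which encode the part that binds the cofactor. Liver and gut are the tissues best known for these enzymes, and UGT1A6, which conjugates small planar phenols such as paracetamol and serotonin, is also found in many other tissues.

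The annotation bears out this layout. The 9 full-length transcripts begin between position 233617633, where exon 1 of UGT1A8 starts, and position 233760270, where exon 1 of UGT1A1 starts, all on the plus strand of chromosome 2. They carry 1 identical run of 1479 bases after exon 1, made of exons 2 to 5, and end at position 233773300. Exon 1 of UGT1A6 runs from 233692890 to 233693865 and is 976 bases long. It was 52.6% to 56.3% identical to the first exons of the other 8 genes in a global alignment. First exons were far closer within 2 subgroups, at 87.9% to 94.4% among UGT1A7, UGT1A8, UGT1A9 and UGT1A10 and at 93.1% to 93.7% among UGT1A3, UGT1A4 and UGT1A5. Single reads of 75 bases can therefore tell UGT1A6 from the other genes only in part. Of the 2381 windows of 75 bases in its main transcript, UGT1A6-201, 40.7% occur in no other UGT1A gene. Reads came in pairs, and a mate in such a window can place the whole pair. The share of pairs that can be placed was not measured and may be higher. RSEM divides the other pairs by estimate.

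**Figure D1:**
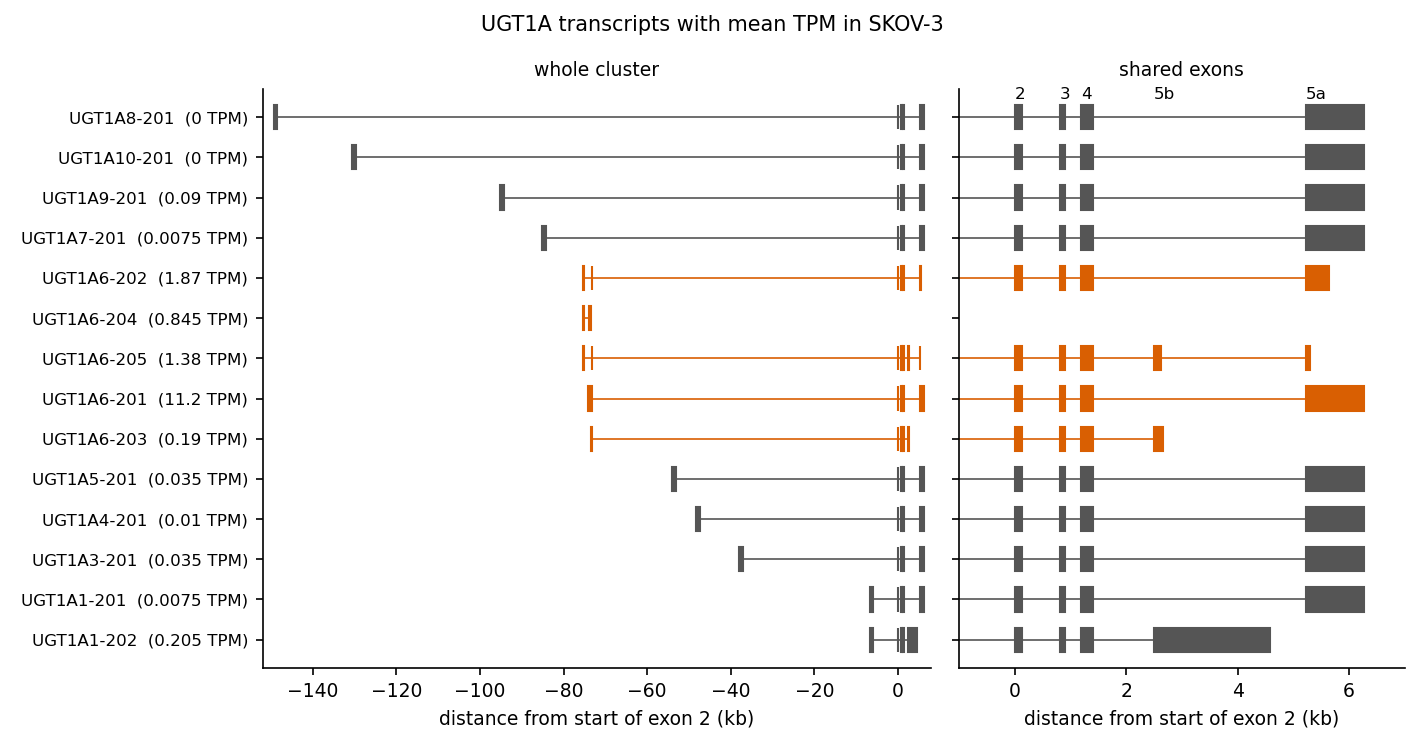
UGT1A transcripts drawn to scale by distance from the start of exon 2 in kb, with the whole cluster on the left and the shared exons on the right. Boxes are exons, lines are introns, orange marks UGT1A6, and the mean TPM in the 4 SKOV-3 libraries stands beside each name. All the full-length transcripts join their own first exon to exons 2, 3, 4 and 5a, whereas UGT1A1-202, UGT1A6-203 and UGT1A6-205 hold exon 5b.

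Alternative splicing at the other end of the locus sets the fate of the protein. Exon 5a gives the full-length enzyme, whereas exon 5b ends the open reading frame early and gives a shorter protein that is known as i2 and lacks transferase activity. The junction into exon 5b is shown because it sets these transcripts apart below. The last 30 bases of exon 4, which end at position 233768439, are in lower case and the first 60 bases of exon 5b, from position 233769531, are in capitals.
exon 4 to exon 5b: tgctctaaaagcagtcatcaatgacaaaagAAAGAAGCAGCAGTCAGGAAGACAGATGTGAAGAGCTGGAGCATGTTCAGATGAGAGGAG

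The starts of UGT1A6 are shown because nearly all UGT1A RNA in these cells came from this gene. RefSeq (GRCh38.p14) gives promoter windows, from 250 bases before to 50 bases after a start, for 8 of the 9 genes and for 2 starts of UGT1A6. Capitals mark matches, on either strand, to TGACNNNGC, the core of the antioxidant response element bound by NRF2, and to GCGTG, the core of the element bound by the aryl hydrocarbon receptor.
UGT1A6 upstream start, chr2:233691452-233691751, plus strand: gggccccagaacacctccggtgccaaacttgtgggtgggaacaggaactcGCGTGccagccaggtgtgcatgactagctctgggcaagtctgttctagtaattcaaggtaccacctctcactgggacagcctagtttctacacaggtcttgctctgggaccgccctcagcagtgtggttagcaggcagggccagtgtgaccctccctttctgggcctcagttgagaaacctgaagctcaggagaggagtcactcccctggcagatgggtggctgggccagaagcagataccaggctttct
UGT1A6 main start, chr2:233692640-233692939, plus strand: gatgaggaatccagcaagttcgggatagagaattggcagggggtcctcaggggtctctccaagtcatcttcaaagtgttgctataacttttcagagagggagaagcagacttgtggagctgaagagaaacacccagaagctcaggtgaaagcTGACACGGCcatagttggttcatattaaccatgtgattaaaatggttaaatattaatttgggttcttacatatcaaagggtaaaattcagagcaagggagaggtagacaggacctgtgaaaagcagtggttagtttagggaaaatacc
The window of the main start, the exon 1 start of UGT1A6-201 at position 233692890, held TGACNNNGC on the plus strand, beginning 98 bases before the start. The window of the upstream start held GCGTG on the plus strand, 200 bases before it. No match overlapped another. Among all 35116 promoter windows of the table, 13.3% held TGACNNNGC and 36.5% held GCGTG. Of the 9 windows of UGT1A genes, 2 held TGACNNNGC, those of UGT1A6 and UGT1A5, and 6 held GCGTG. A match of letters is not a bound site.

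Expected counts per library summed to between 19780836 and 38583368 for T1074, between 38690954 and 47148161 for PEO-4, and between 47340136 and 55739060 for SKOV-3. The shallowest library was T1074 replicate 1, where rRNA genes took 1.98% of the counts, against 0.00801% to 0.631% in the other 11 libraries. Epithelial markers summed to 710 to 1940 CPM in T1074, 2370 to 3360 CPM in PEO-4 and 943 to 1830 CPM in SKOV-3, but in T1074 the defining genes EPCAM and CDH1 stood at only 0.0963 and 0.354 CPM and the keratins made up the sum. The 5 mesenchymal markers summed to 1630 to 3670 CPM in T1074, 6.49 to 7.88 CPM in PEO-4 and 2530 to 4090 CPM in SKOV-3. In SKOV-3 the Müllerian factor PAX8 was at 92.3 CPM, whereas WT1 and MUC16, which mark serous tumors, were at 0.942 and 0.386 CPM. MSLN, the remaining gene of the Müllerian list, was at 10.4 CPM in SKOV-3. The 6 hepatocyte markers, ALB and APOA1 among them, summed to at most 0.275 CPM in any library, and the 4 intestinal markers to at most 0.47 CPM, so the defining genes of the tissues best known for UGT1A RNA were at or near 0 in all lines. As in all bulk samples, fewer cells of a type and less RNA per cell cannot be told apart. The labels do not say whether replicates were separate cultures, and the p-values below measure only the spread between these libraries, which may be technical.

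UGT1A RNA was found in SKOV-3 and was at or near 0 in the other lines. In SKOV-3 the expected counts summed over the 9 genes were 5654.86, 6216.22, 3543.47 and 3673.34 in replicates 1 to 4. In T1074 they were 0, 5.0, 0 and 1.0, and in PEO-4 they were 0 in each replicate. Every SKOV-3 library thus stood far above every library of the other lines, and T1074 and PEO-4 overlapped at 0. The summed level in SKOV-3 was 95.1 ± 23.0 CPM (SD, n = 4), or 16.1 ± 3.13 TPM (SD, n = 4). For the UGT1A ratios to T1074, counts were pooled over the libraries of a line, relative to their pooled scaled totals. The summed level in SKOV-3 was 2310 times that in T1074 by such counts (exact 95% interval of the ratio of counts 1060 to 6310). Without T1074 replicate 2, which held 5.0 of the 6.0 counts of that line, the ratio was 9690, and without T1074 replicate 1 it was 2000. Against a floor of 3 counts per library, the level in SKOV-3 was at least 1320-fold higher than in PEO-4. These intervals and floors cover counting error only, since reads that carry no molecular identifiers may repeat 1 molecule.

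**Figure D2:**
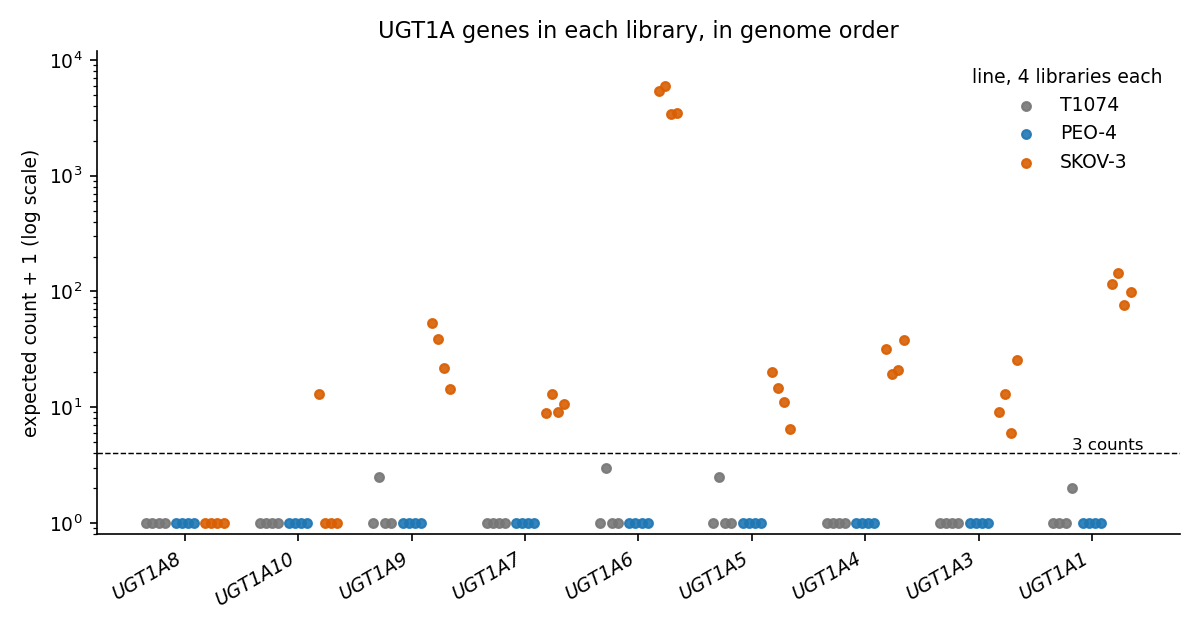
Expected count + 1 of the 9 UGT1A genes, on a log scale, in genome order; each point is 1 library of T1074 (grey), PEO-4 (blue) or SKOV-3 (orange), 4 for each line, and the dashed line marks 3 counts. UGT1A6 holds 3404 to 5979 counts in SKOV-3, UGT1A8 is at 0 in every library, and no library of T1074 or PEO-4 reaches 3 counts for any gene.

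UGT1A6 made up nearly all of this RNA. Its expected counts in SKOV-3 were 5409.17, 5978.9, 3403.53 and 3484.64 in replicates 1 to 4. T1074 replicate 2 held 2.0 counts, both assigned to UGT1A6-207, a transcript with no defined coding sequence, and the other 7 libraries of T1074 and PEO-4 held none. The groups therefore did not overlap, and replicates 1 and 2 of SKOV-3 stood above replicates 3 and 4. The mean in SKOV-3 was 91.1 ± 22.3 CPM (SD, n = 4), at least 1260-fold higher than in PEO-4. By pooled counts the level in SKOV-3 was 6650 times that in T1074, with an exact 95% interval of 1840 to 54900. At 15.6 ± 3.09 TPM (SD, n = 4) UGT1A6 ranked 1773rd of 19985 protein-coding genes in SKOV-3. Of the 16546 genes above 0 in that line, 10.7% ranked higher, and their median was 1.96 TPM. Within the cluster UGT1A6 held 96.9% ± 0.474 of the summed TPM (SD, n = 4; range 96.3% to 97.4%).

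UGT1A1, the enzyme that conjugates bilirubin, came next. Its expected counts in SKOV-3 were 115.58, 143.54, 75.93 and 98.29, and a single count fell in T1074 replicate 4 and none in PEO-4. SKOV-3 thus stood above the other lines in every library, at 2.16 ± 0.473 CPM (SD, n = 4). By pooled counts the level in SKOV-3 was 315 times that in T1074, with an exact 95% interval of 56.2 to 12500. On the TPM scale UGT1A1 was at 0.212 ± 0.033 (SD, n = 4), or 1.34% of the cluster.

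The other genes were near the limit of detection. UGT1A9, known for conjugating propofol, had 52.18, 37.63, 20.92 and 13.3 counts in SKOV-3 and 1.51 counts in T1074 replicate 2. UGT1A4, which conjugates amines, had 30.62, 18.43, 19.99 and 37.2 counts in SKOV-3 and none in the other lines. UGT1A3, UGT1A5 and UGT1A7 had between 5.03 and 24.74 counts in each SKOV-3 library, and outside SKOV-3 only UGT1A5 had any, 1.49 counts in T1074 replicate 2. That value and the 1.51 of UGT1A9 in the same library are fractional, since RSEM divided reads by estimate. They do not place a read in either gene. Summed over their transcripts, UGT1A9, UGT1A4, UGT1A3, UGT1A5 and UGT1A7 did not overlap between SKOV-3 and the other lines. Most UGT1A4 counts in SKOV-3 fell on UGT1A4-202 (14.3 to 34.03), which is annotated as a target of nonsense-mediated decay. UGT1A7-202, which lacks the shared exons, held 3.0 to 8.01. The full-length UGT1A4-201 (0 to 5.69) and UGT1A7-201 (0 to 5.02) reached 0 in SKOV-3 and so overlapped with the other lines. UGT1A10 had 12.03 counts in SKOV-3 replicate 1 and none in the other 11 libraries, so that SKOV-3 overlapped with both other lines. UGT1A8, which with UGT1A10 and UGT1A7 is known from the gut, had no count in any of the 12 libraries, which allows 3 counts per library, or 0.0604 CPM on average in SKOV-3.

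By TPM in SKOV-3 the order was UGT1A6, UGT1A1, UGT1A9, UGT1A4, then UGT1A3 and UGT1A5, UGT1A7, UGT1A10 and UGT1A8. UGT1A6 and UGT1A1, at 0.19 to 0.26 TPM, each stood above the next gene in all 4 libraries. From UGT1A9 (0.04 to 0.14 TPM) through UGT1A4 (0.05 to 0.11 TPM) and UGT1A3 (0.02 to 0.07 TPM) to UGT1A10 (0 to 0.04 TPM) each neighbour overlapped with the next, so their order is not resolved. In all, 7 of the 9 genes were higher in every SKOV-3 library than in every library of T1074, and the same number against PEO-4. Of all 19898 genes that passed the filter on low counts, 30.5% were higher in every SKOV-3 library than in every T1074 library and 37.2% than in every PEO-4 library. Since the cluster was chosen on these levels, nothing is read from that count. No gene of the cluster was higher in every PEO-4 library than in every T1074 library. The filter kept 4 of the 9, UGT1A1, UGT1A4, UGT1A6 and UGT1A9, and UGT1A3, UGT1A5, UGT1A7, UGT1A8 and UGT1A10 fell below it.

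Among the 20 transcripts, 6 reached a mean of 0.1 TPM in SKOV-3, and 5 of them belong to UGT1A6. UGT1A6-201, which joins exon 1 to exons 2, 3, 4 and 5a and encodes the full-length enzyme, stood at 12.26, 13.88, 10.57 and 8.15 TPM in replicates 1 to 4. It held 71.8% ± 1.83 of the TPM of UGT1A6 (SD, n = 4). The transcripts UGT1A6-202, UGT1A6-204, UGT1A6-205 and UGT1A6-207 begin upstream, between positions 233691607 and 233691710, and together held 26.9% ± 2.28 (SD, n = 4; range 24.2% to 29.2%). The main start thus gave the larger share in every library. By expected counts, which are not divided by length, the shares were 88.5% and 11.1%. The upstream models are 745 to 1848 bases long and UGT1A6-201 is 2455 bases long.

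**Figure D3:**
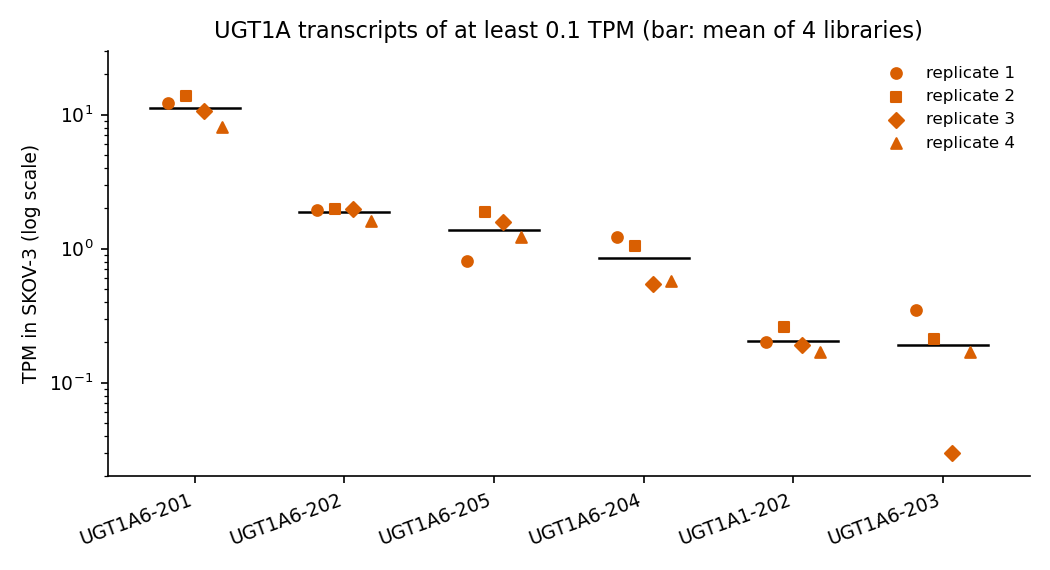
TPM in SKOV-3, on a log scale, of the 6 UGT1A transcripts with a mean of at least 0.1 TPM; each marker is 1 of the 4 replicates and each bar their mean. UGT1A6-201 lies between 8.15 and 13.88 TPM, above every other transcript, and UGT1A6-203 spreads most, from 0.03 to 0.35 TPM.

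The upstream transcripts differed in what they encode. UGT1A6-202, a coding transcript that ends in exon 5a, was at 1.93, 1.96, 1.98 and 1.62 TPM. UGT1A6-205, which holds both exon 5b and exon 5a and is annotated as a target of nonsense-mediated decay, was at 0.81, 1.89, 1.59 and 1.23 TPM. UGT1A6-204, a model of 2 exons that ends inside exon 1, was at 1.23, 1.04, 0.54 and 0.57 TPM. Replicate 1 was the lowest of the 4 for UGT1A6-205 and the highest for UGT1A6-204. No 75-base window of UGT1A6-202 or UGT1A6-205 is free of overlap with other UGT1A transcripts, whereas 11.7% of the windows of UGT1A6-201 and 10.6% of those of UGT1A6-204 are, so the split among the upstream transcripts rests on RSEM's estimate.

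Most of the cluster's RNA ended in exon 5a. Transcripts with exon 5a and not 5b held 82.6% ± 1.13 of the summed TPM of the 9 genes in SKOV-3 (SD, n = 4). Transcripts with exon 5b and not 5a held 2.51% ± 0.827 (SD, n = 4), of which UGT1A1-202, taken up below, gave 1.28%. Those with both exons held 9.20% ± 2.73 (SD, n = 4), and those with neither 5.69% ± 1.52 (SD, n = 4). How much of the RNA with exon 5b is made into the i2 form was not tested. Exon 5b was thus present in 11.7% ± 2.19 of the TPM (SD, n = 4; 8.58%, 12.3%, 12.3% and 13.7% in replicates 1 to 4). By expected count that share was 6.09%. For UGT1A6 alone, exon 5a without 5b held 84.0% and exon 5b alone 1.21%.

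UGT1A1 showed the reverse. UGT1A1-201, its full-length transcript, held 4.27, 0, 0 and 8.25 counts in the SKOV-3 replicates, whereas UGT1A1-202, which ends in exon 5b, held 111.31, 143.54, 75.93 and 90.04. UGT1A1-202 made up 96.2% ± 5.0 of UGT1A1 by TPM (SD, n = 4; range 89.5% to 100%). Its exon 5b runs to position 233771615, and the last 1336 of its 2085 bases belong to no other UGT1A transcript. They lie in the intron between exons 4 and 5a of UGT1A6-201 and the other full-length transcripts, so that reads of any unspliced UGT1A RNA in this total RNA would fit UGT1A1-202 alone. Other annotated genes inside the locus that lie downstream of UGT1A6 exon 1 also held a few counts. The pseudogene UGT1A2P had 7, 3, 3 and 3 counts in SKOV-3, 0 in T1074 and at most 1 in PEO-4, and DNAJB3, on the other strand, had 5, 6, 1 and 6 in SKOV-3 and 0 elsewhere. The pseudogenes UGT1A11P, UGT1A12P and UGT1A13P, which lie upstream of UGT1A6, had 0 in all 12 libraries. The part of unspliced RNA in the level of UGT1A1 was not tested.

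The genes whose levels over the 12 libraries were most like the summed UGT1A level were found among 13896 protein-coding genes. Likeness was the root mean square difference of log2 CPM (prior count of 2) after centring each gene on its mean. ZIC2, a zinc-finger transcription factor on chromosome 13 (99981784 to 99986765), was closest at 0.296, with 86.9 ± 12.4 CPM in SKOV-3, 0.0582 ± 0.0865 CPM in T1074 and 0.00732 ± 0.0146 CPM in PEO-4 (SD, n = 4 each). It was followed by TCIM (0.65), the aldo-keto reductase AKR1C1 (0.666), the collagenase MMP1 (0.783), the scavenger receptor MSR1 (0.857), the kinase MATK (0.927), the carboxylesterase CES1 (0.946), the homeobox gene LHX1 (0.961), AKR1C2 (0.962) and the cadherin CDH16 (0.964). Each had at least 24.4 CPM in SKOV-3 and at most 0.528 CPM in the other lines on average. AKR1C1 and AKR1C2 are near-identical copies that share reads, so their separate levels are uncertain. This is a description of 12 libraries that mainly records a low level in both other lines, with no test.

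Genes that act before, after or upon glucuronidation were drawn from 9 lists, chosen with earlier results of these data known, and tested over all 19898 genes by the quasi-likelihood test of edgeR with Benjamini-Hochberg adjustment. Of 104 listed genes, 78 were tested. Between SKOV-3 and T1074, 46 were higher in SKOV-3 and 22 lower, against 33.3% and 34.5% of all genes tested. Between SKOV-3 and PEO-4, 51 were higher in SKOV-3 and 13 lower, against 36.7% and 38.5% of all genes. Between PEO-4 and T1074, 18 were higher in PEO-4 and 40 lower, against 36.3% and 37.8% of all genes. The 3 comparisons share libraries and are not independent. Without T1074 replicate 1 the counts were 45 and 23, 52 and 13, and 18 and 40. The median log2 fold change of all genes was −0.028, −0.047 and −0.011 in the same order.

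NRF2, encoded by NFE2L2, is a transcription factor that raises antioxidant and conjugating enzymes when its inhibitor KEAP1 lets go of it, and UGT1A6 is a known target. NFE2L2 was at 145, 148, 156 and 119 CPM in SKOV-3, 82.0 to 96.2 CPM in T1074 and 77.8 to 92.6 CPM in PEO-4. Its SKOV-3 libraries stood above all others, by 0.66 ± 0.11 on the log2 scale over T1074 (SE; edgeR adjusted p = 8.49e-05) and 0.73 ± 0.11 over PEO-4 (edgeR adjusted p = 2.44e-05). KEAP1 was at 73.9 to 77.8 CPM in SKOV-3, within the range of T1074 (56.1 to 86.3 CPM) and below PEO-4 (104 to 116 CPM). KEAP1 fell by 0.57 ± 0.12 on the log2 scale against PEO-4 (SE; edgeR adjusted p = 7.47e-04), and its difference from T1074 was 0.19 ± 0.12 (edgeR adjusted p = 0.173).

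The 16 common NRF2 targets were mostly highest in SKOV-3. All 16 were higher in SKOV-3 than in PEO-4 (36.7% of all genes), with a median log2 difference of 2.51. Against T1074, 15 were higher (33.3% of all genes), with a median of 2.17. Between PEO-4 and T1074, 2 were higher in PEO-4 and 9 lower (36.3% and 37.8% of all genes). The other 5 did not pass, and the median was −0.62. NQO1, a quinone reductase, was at 444, 594, 470 and 476 CPM in SKOV-3, 44.3 to 91.7 CPM in T1074 and 35.9 to 59.7 CPM in PEO-4. SKOV-3 stood above both other lines in every library, with log2 fold changes of 3.01 ± 0.24 over T1074 (SE; edgeR adjusted p = 6.18e-08) and 3.39 ± 0.24 over PEO-4 (edgeR adjusted p = 1.53e-08). SLC7A11, the cystine carrier, was at 836 ± 122 CPM in SKOV-3, 210 ± 26.1 CPM in T1074 and 52.3 ± 5.62 CPM in PEO-4 (SD, n = 4 each), and all 3 differences passed the test.

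AKR1C1 showed the largest difference of the list, at 220 to 517 CPM in SKOV-3 and at most 0.634 CPM elsewhere. The ferritin chain FTL, the pentose phosphate enzyme TKT and OSGIN1 were 2.23, 2.13 and 4.11 higher on the log2 scale in SKOV-3 than in PEO-4. AKR1B10 was low, at 1.26 ± 0.423 CPM in SKOV-3 (SD, n = 4), 4.65 on the log2 scale above T1074. TXNRD1, thioredoxin reductase, was the exception. It was at 610, 575, 880 and 1160 CPM in T1074 and 422 to 723 CPM in SKOV-3, which overlap, and it fell by 0.54 ± 0.21 on the log2 scale in SKOV-3 (SE; edgeR adjusted p = 0.036). That call was lost when any 1 of 9 libraries was left out (T1074 replicates 3 and 4, SKOV-3 replicates 1, 2 and 3, or any of PEO-4), with edgeR adjusted p of 0.0607 to 0.167, with no filter on low counts (0.0523) and in a fit of the 8 libraries compared (0.0678). Between PEO-4 and T1074 the call of OSGIN1, −0.78 ± 0.33 on the log2 scale (SE; edgeR adjusted p = 0.046), was likewise lost without any 1 of 8 libraries (T1074 replicates 1, 2 and 3, SKOV-3 replicate 2, or any of PEO-4), with edgeR adjusted p of 0.0521 to 0.242, and with the size factors of DESeq2 (0.0687), counts rebuilt from TPM (0.126) and a fit of the 8 libraries compared (0.115).

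**Figure D4:**
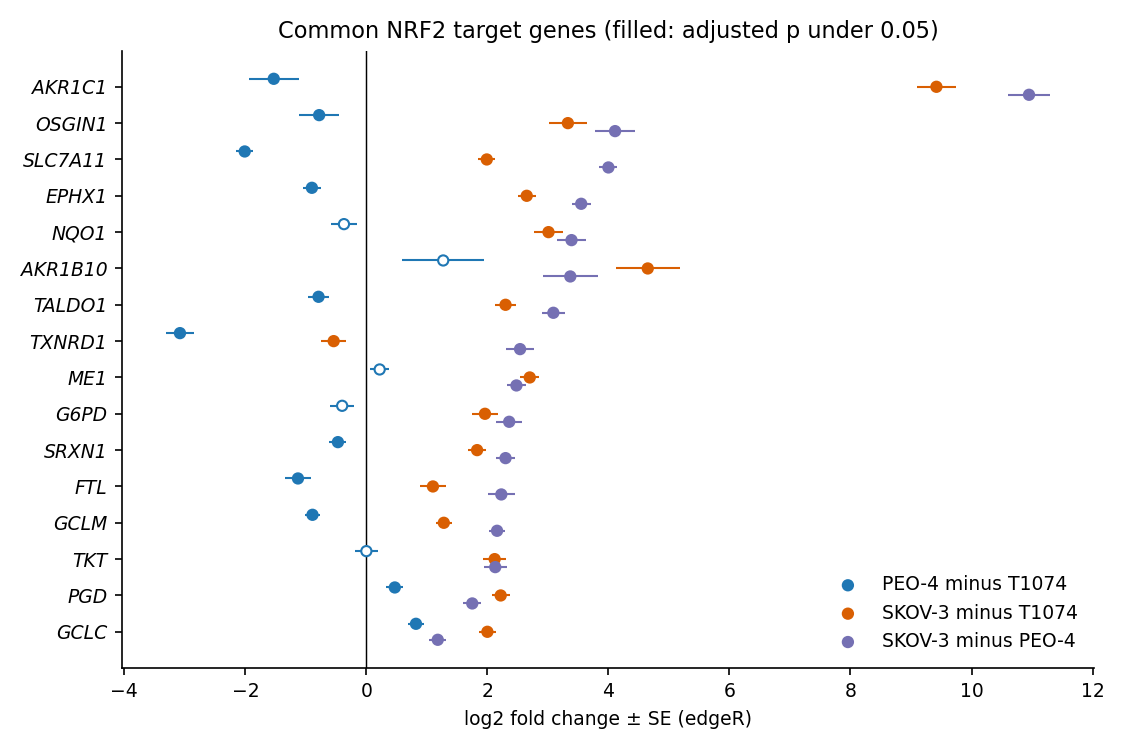
Log2 fold change ± SE from edgeR of the 16 common NRF2 target genes in the 3 comparisons of lines, sorted by SKOV-3 minus PEO-4; filled points have an adjusted p under 0.05. All SKOV-3 minus PEO-4 points lie above 0, and for SKOV-3 minus T1074 only TXNRD1 lies below 0.

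The aryl hydrocarbon receptor, AHR, which senses planar aromatic molecules and also acts on UGT1A genes, was at 171, 205, 180 and 176 CPM in SKOV-3, 60.5 to 127 CPM in T1074 and 33.0 to 39.6 CPM in PEO-4. The 3 lines did not overlap, and SKOV-3 was 0.89 ± 0.17 above T1074 (SE; edgeR adjusted p = 3.91e-04) and 2.32 ± 0.18 above PEO-4 on the log2 scale (edgeR adjusted p = 3.60e-08). Its common targets did not share this order. Of 5 tested, 2 were higher and 3 lower in SKOV-3 than in T1074 (33.3% and 34.5% of all genes), with a median of −2.13. Against PEO-4, 2 were higher and 1 lower (36.7% and 38.5% of all genes), with a median of −0.05. CYP1B1, which oxidises estrogens, was at 364 ± 62.7 CPM in SKOV-3, 17.7 ± 4.34 CPM in T1074 and 21.9 ± 7.79 CPM in PEO-4 (SD, n = 4 each), and the aldehyde dehydrogenase ALDH3A1 at 47.8 ± 25.0, 0.116 ± 0.0641 and 13.7 ± 5.26 CPM. Both rose in SKOV-3 against both lines. CYP1A1, the classic target, stayed low at 0.132 ± 0.0596 CPM in SKOV-3 against 0.781 ± 0.233 CPM in T1074 (SD, n = 4 each), and the receptor's repressor AHRR and TIPARP were lower in SKOV-3 than in T1074, with log2 changes of −4.41 and −2.13.

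The other regulators were called in both directions. Of 14 tested in the list, which includes NFE2L2, KEAP1 and AHR, 6 were higher and 4 lower in SKOV-3 than in T1074 (33.3% and 34.5% of all genes). Against PEO-4, 8 were higher and 3 lower (36.7% and 38.5% of all genes). Nothing is read from these counts. The liver factor HNF4A stayed at or below 0.0946 CPM on average in every line, the intestinal factor CDX2 at or below 0.0343 CPM and the xenobiotic receptor NR1I2 at or below 0.0603 CPM, and none of these 3 passed the filter. The receptor NR1I3 was at 0.0337 ± 0.0404 CPM in SKOV-3, below T1074 at 0.329 ± 0.164 CPM (SD, n = 4 each; edgeR adjusted p = 0.00123), although SKOV-3 replicate 4 and T1074 replicate 4 overlapped. The small MAF partners MAFF and MAFK were lower in SKOV-3 than in T1074, with log2 changes of −1.35 and −2.43, as was the corepressor NCOR1 with −1.10. The remaining small MAF of the list, MAFG, named after its values were seen, went the other way, 0.33 ± 0.11 above T1074 (SE; edgeR adjusted p = 0.0178) and 0.88 ± 0.11 above PEO-4 (edgeR adjusted p = 6.64e-06). The former call was lost with library size as the only scaling (0.14, edgeR adjusted p = 0.337) and without T1074 replicate 2 or SKOV-3 replicate 4 (edgeR adjusted p = 0.0555 and 0.0519). The glucocorticoid receptor NR3C1 was highest in PEO-4, at 345 ± 25.0 CPM (SD, n = 4).

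The supply of UDP-glucuronic acid turns on UGDH, the dehydrogenase that makes it from UDP-glucose. UGDH was at 175, 230, 217 and 235 CPM in SKOV-3, at most 54.0 CPM in T1074 and 24.2 to 30.6 CPM in PEO-4. Each SKOV-3 library was above all others, and the log2 fold change was 2.45 ± 0.17 over T1074 (SE; edgeR adjusted p = 1.19e-08) and 2.94 ± 0.17 over PEO-4 (edgeR adjusted p = 1.56e-09). The difference between PEO-4 and T1074, −0.49 ± 0.16 (edgeR adjusted p = 0.0121), was lost without PEO-4 replicate 2 or replicate 3, at edgeR adjusted p of 0.095 and 0.12, and in a fit of the 8 libraries compared, at 0.0621. PGM1, which acts before UGDH, was also higher in SKOV-3 than in T1074, by 2.66 on the log2 scale. UXS1, which consumes UDP-glucuronic acid, was higher by 1.70. UGP2, which makes UDP-glucose, differed from T1074 by 0.19 ± 0.12 (SE; edgeR adjusted p = 0.165).

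SLC35D1 and GUSB did not share this rise over T1074. SLC35D1, a carrier of UDP-glucuronic acid into the endoplasmic reticulum, was at 20.5, 22.8, 25.4 and 22.5 CPM in SKOV-3 and 27.6 to 39.6 CPM in T1074. It was lower in SKOV-3 than in T1074 by a log2 change of −0.47 ± 0.12 (SE; edgeR adjusted p = 0.00295), and the difference from PEO-4 was 0.14 ± 0.12 (edgeR adjusted p = 0.298). GUSB, the lysosomal enzyme that splits glucuronides, was at 27.3 to 33.2 CPM in SKOV-3 and 74.3 to 92.6 CPM in T1074, a log2 change of −1.46 ± 0.10 (SE; edgeR adjusted p = 1.37e-08). Of the 8 genes of this list, 3 were higher and 3 lower in SKOV-3 than in T1074 (33.3% and 34.5% of all genes). Against PEO-4, 6 were higher and 0 lower in SKOV-3 (36.7% and 38.5% of all genes). Between PEO-4 and T1074, 1 was higher and 6 lower in PEO-4 (36.3% and 37.8% of all genes).

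Glucuronides leave the cell through carriers of the ABCC family and enter through those of the SLCO family. ABCC3, which exports glucuronides, was at 124, 163, 111 and 129 CPM in SKOV-3, 10.5 to 18.2 CPM in T1074 and 35.4 to 47.5 CPM in PEO-4, with no overlap among the 3 lines. Its log2 fold change in SKOV-3 was 3.29 ± 0.19 over T1074 (SE; edgeR adjusted p = 1.79e-09) and 1.74 ± 0.17 over PEO-4 (edgeR adjusted p = 4.54e-07). ABCC1 was also highest in SKOV-3, by 2.01 over T1074 and 1.16 over PEO-4 on the log2 scale. ABCC2, the apical exporter of bilirubin glucuronide, was low, at 1.17 ± 0.281 CPM in SKOV-3 and 1.16 ± 0.485 CPM in T1074 (SD, n = 4 each), a log2 difference of 0.02 ± 0.33 (SE; edgeR adjusted p = 0.962).

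SLCO1B3, a liver uptake carrier of bilirubin, was at 22.8, 20.3, 27.6 and 22.5 CPM in SKOV-3 whereas no library of T1074 or PEO-4 held a count. The level in SKOV-3 was at least 254-fold higher than in T1074 and at least 322-fold higher than in PEO-4. SLCO1B1 was at 0.87 ± 0.0584 CPM in SKOV-3 (SD, n = 4) with 1 count in each other line. SLCO4A1 was 3.94 ± 0.22 above T1074 on the log2 scale (SE; edgeR adjusted p = 1.59e-09). ABCG2 went the other way against T1074, at 11.0 ± 1.23 CPM there, 1.42 ± 0.424 CPM in SKOV-3 and 0.0777 ± 0.0271 CPM in PEO-4 (SD, n = 4 each). ABCC4 did not pass between SKOV-3 and PEO-4, at 69.3 ± 1.49 and 64.5 ± 13.1 CPM (SD, n = 4 each; edgeR adjusted p = 0.499). Of 9 carriers tested, 7 were higher and 1 lower in SKOV-3 than in T1074 (33.3% and 34.5% of all genes), with a median of 3.29. Against PEO-4, 7 were higher and 0 lower (36.7% and 38.5% of all genes), with a median of 2.37. With the SLCO1B genes set at their bounds the medians were 3.24 and 2.37.

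**Figure D5:**
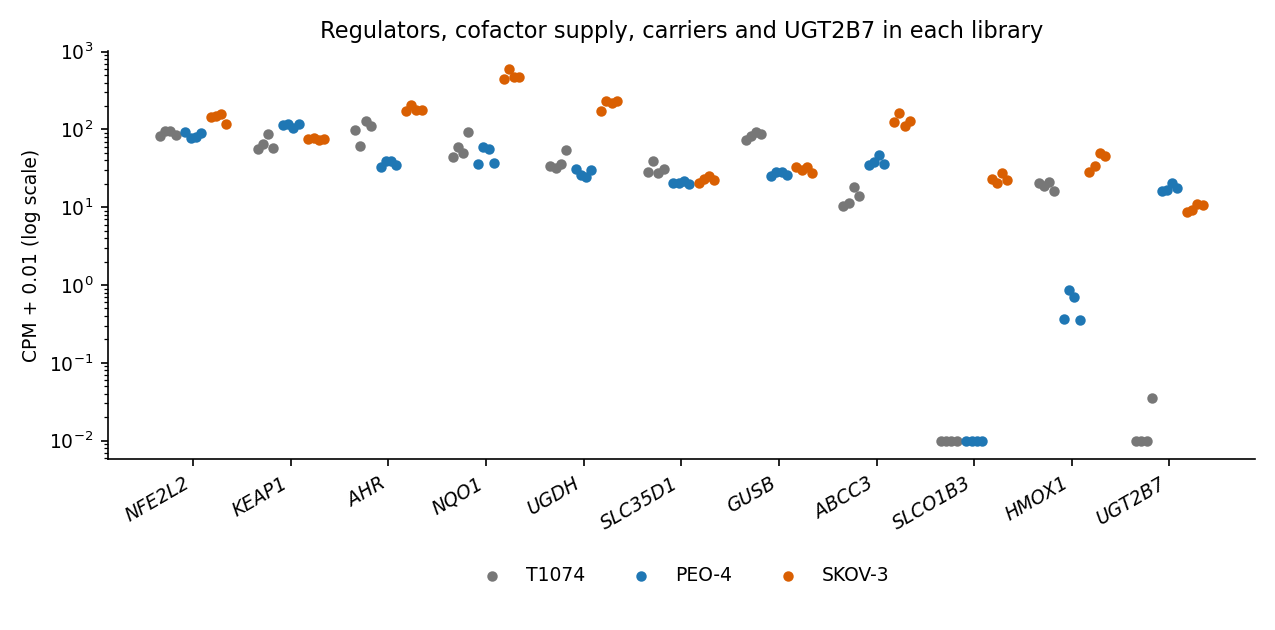
CPM + 0.01, on a log scale, of 11 genes around glucuronidation; each point is 1 library of T1074 (grey), PEO-4 (blue) or SKOV-3 (orange), 4 for each line. SLCO1B3 is at 0 outside SKOV-3, UGDH, ABCC3 and NQO1 are highest in SKOV-3, and UGT2B7 is highest in PEO-4.

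Bilirubin, the substrate of UGT1A1, comes from heme through heme oxygenase and biliverdin reductase. HMOX1, the inducible oxygenase and also an NRF2 target, was at 28.1, 33.9, 49.4 and 45.3 CPM in SKOV-3, 16.2 to 21.3 CPM in T1074 and 0.346 to 0.844 CPM in PEO-4. The lines did not overlap, and SKOV-3 was 1.03 ± 0.21 above T1074 (SE; edgeR adjusted p = 5.38e-04) and 6.12 ± 0.28 above PEO-4 on the log2 scale (edgeR adjusted p = 1.48e-10). All 4 genes of the list were higher in SKOV-3 than in PEO-4 (36.7% of all genes), and 3 of 4 were higher than in T1074 (33.3% of all genes). BLVRA was the exception with 0.06 ± 0.16 (SE; edgeR adjusted p = 0.766). BLVRB was 0.61 ± 0.15 above T1074. The rise of HMOX2 over T1074, 0.27 ± 0.11 (SE; edgeR adjusted p = 0.0331), was lost without any 1 of 4 libraries (replicates 1 and 4 of T1074, replicates 1 and 3 of SKOV-3), with edgeR adjusted p of 0.0602 to 0.0792. It was also lost with library size as the only scaling (0.07, edgeR adjusted p = 0.66), with counts rebuilt from TPM (0.19, edgeR adjusted p = 0.13) and in a fit of the 8 libraries compared (edgeR adjusted p = 0.0633).

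The other glycosyltransferases were split. Of 13 listed, 3 were tested, of which 2 were higher and 1 lower in SKOV-3 than in T1074 (33.3% and 34.5% of all genes). All 3 were lower in SKOV-3 than in PEO-4 (38.5% of all genes) and higher in PEO-4 than in T1074 (36.3% of all genes). UGT2B7, which conjugates opioids and steroids, was at 16.3, 16.6, 20.3 and 17.7 CPM in PEO-4, 8.79, 9.35, 10.9 and 10.7 CPM in SKOV-3, and a single count was seen in T1074. The 3 lines did not overlap, and SKOV-3 was lower than PEO-4 by a log2 change of −0.84 ± 0.15 (SE; edgeR adjusted p = 1.20e-04). Against T1074, UGT2B7 was higher in both carcinoma lines, with a ratio of 1430 in SKOV-3 (exact 95% interval 257 to 56700) and 2590 in PEO-4 (exact 95% interval 464 to 102000). PEO-4, with no UGT1A count, held UGT2B7 at 4.62 TPM. UGT8, which makes galactosylceramide, was also highest in PEO-4, at 8.06 ± 0.891 CPM against 3.55 ± 0.25 CPM in SKOV-3 and 1.79 ± 0.26 CPM in T1074 (SD, n = 4 each), and UGT3A2 at 1.11 ± 0.393 CPM. UGT2A3, too low to be tested, was at 0.273, 0.288, 0.235 and 0.123 CPM in SKOV-3, 0 in T1074 and at most 0.0216 CPM in PEO-4, so that SKOV-3 overlapped with neither line. The other 9 were at or below 0.0403 CPM on average in each line. Reads of the UGT2B genes are shared among close copies, so their split is uncertain.

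Enzymes of other conjugation routes were called in both directions. Of 14 tested, 5 were higher and 8 lower in SKOV-3 than in T1074 (33.3% and 34.5% of all genes), with a median of −0.75. Against PEO-4, 5 were higher and 5 lower (36.7% and 38.5% of all genes), with a median of −0.06. Nothing is read from these counts. The phenol sulfotransferase SULT1A1 was at 4.94 ± 0.869 CPM in PEO-4, 0.627 ± 0.259 CPM in T1074 and 0.185 ± 0.0289 CPM in SKOV-3 (SD, n = 4 each), and SULT2B1 was likewise highest in PEO-4. GSTM2 was lower in SKOV-3 than in both lines and GSTM3 highest in T1074, whereas GSTP1, the most abundant, was highest in PEO-4 at 523 ± 22.8 CPM (SD, n = 4). The methyltransferase NNMT was higher in SKOV-3 than in both lines, by 0.72 over T1074 and 2.73 over PEO-4 on the log2 scale. MGST1 was lower in SKOV-3 than in both.

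Of 9 genes listed beside or within the cluster on chromosome 2, 5 were tested. ATG16L1, DGKD, USP40 and HJURP were read in every library, and the lowest of their levels was that of HJURP in PEO-4 replicate 1, at 10.8 CPM. ATG16L1 was at 62.9 ± 7.64 CPM in SKOV-3 against 32.1 ± 3.21 CPM in T1074 and 29.1 ± 2.92 CPM in PEO-4 (SD, n = 4 each), a log2 difference of 0.97 and 1.11. USP40 differed from T1074 by −0.09 ± 0.14 on the log2 scale (SE; edgeR adjusted p = 0.607), and HJURP was lower in SKOV-3 than in T1074 with a log2 change of −1.81. DGKD was 0.33 ± 0.13 above T1074 (SE; edgeR adjusted p = 0.0387), and that call was lost without any 1 of 6 libraries (replicates 1, 2 and 4 of T1074, replicates 2, 3 and 4 of SKOV-3), with edgeR adjusted p of 0.053 to 0.095. With library size as the only scaling the difference was 0.13 (edgeR adjusted p = 0.453), and a fit of the 8 libraries compared gave an edgeR adjusted p of 0.0704. TRPM8 was at 0.768 CPM in PEO-4, 0.315 CPM in SKOV-3 and 0 in T1074, at least 3.44-fold higher in SKOV-3 than in T1074. The other 4, SAG, DNAJB3, MROH2A and SPP2, were at or below 0.0892 CPM on average in each line. Of the 5 neighbours tested, 3 were higher and 1 lower in SKOV-3 than in T1074 (33.3% and 34.5% of all genes). Against PEO-4, 3 were higher and 1 lower (36.7% and 38.5% of all genes).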

How the data were processed

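Total RNA of 12 libraries, 4 for each of T1074, PEO-4 and SKOV-3, was depleted of rRNA, made into strand-specific libraries and read as paired ends of 75 bases. The authors demultiplexed with bcl2fastq 2.20.0.422, trimmed with Trimmomatic 0.39 and ran STAR 2.7.3a and RSEM 1.3.1 on hg38 with Gencode 39. The expected count that the authors deposited per transcript is not normalized, and the deposited TPM is divided by effective length and scaled per library. For the tests expected counts were summed per gene and rounded. GENCODE 44 held 61415 of the 61533 gene IDs and all 20 UGT1A transcripts had the same version. Genes were filtered with filterByExpr, scaled by TMM and tested in edgeR 4.0.16 (R 4.3.3), 1 fit of 12 libraries, Benjamini-Hochberg over 19898 genes, threshold 0.05. The method was run on simulated data in which a small set of genes changed in SKOV-3 alone. Far more genes were called in the real data, so nothing is drawn from that run. DESeq2 1.42.0, other scalings, filters and thresholds, a replicate block and leaving out each library were alternatives. Replicates differed by more than sampling noise (over 18 pairs, chi-square divided by its degrees of freedom was 23.18 to 299.8). First exons were aligned with Biopython 1.88. The UGT1A genes and all lists were chosen with earlier results of these data known. Named genes of a list are up to 4 of highest TPM, up to 4 of largest fold change, and NFE2L2, KEAP1, AHR, NQO1, UGDH, SLC35D1, ABCC2 and ABCC3. HNF4A, CDX2, NR1I2, MAFG, SAG, DNAJB3, MROH2A and SPP2 were added after their values were seen. A few listed genes are counted but not named here. The labels give the molecule as protein, whereas the values are RNA-seq.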

Additional observations from a re-analysis of the deposited data

How the results depend on the processing

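The summed UGT1A level in SKOV-3 stayed between 87.1 and 102 CPM when single SKOV-3 libraries were left out, and at 89.8 to 95.5 CPM under the other scalings and with protein-coding transcripts alone. T1074 holds only 6.0 counts. The fold over T1074 by pooled counts therefore ranged from 1660 to 9690 when single libraries were left out, the highest without T1074 replicate 2. As a ratio of mean TPM, which is not pooled, the fold was 1610. The share of UGT1A6 in the cluster was 95.7% by expected counts, which moved it by more than 1 SD, and 96.7% to 97.1% when single SKOV-3 libraries were left out. With a log2 fold change of 1 or more in size also required, 24 of the 40 listed genes lower in PEO-4 than in T1074 remained called. All other counts of listed genes stayed within 1.5 times. With library size as the only scaling, the median log2 fold change of all genes was -0.229 for SKOV-3 minus T1074, -0.170 for PEO-4 minus T1074 and -0.091 for SKOV-3 minus PEO-4, and 41 and 24 listed genes were called higher and lower in SKOV-3 than in T1074. With the replicate number as a block, listed genes higher and lower were 18 and 39, 45 and 21, and 50 and 13 for PEO-4 minus T1074, SKOV-3 minus T1074 and SKOV-3 minus PEO-4. The calls of DGKD in SKOV-3 minus T1074 and of OSGIN1 in PEO-4 minus T1074 were lost under that block (edgeR adjusted p = 0.0525 and 0.0731). Same-numbered libraries of different lines did not deviate together (correlations of -0.0792 to 0.0692 over 12 pairs), so the numbers do not pair the samples. Over all alternatives, 4646 results of single listed genes were recomputed, of which 4532 kept direction and side of the threshold, 66 lost the call, 48 gained one and 0 changed direction while called. Counts under 3 per library cannot be told from 0, and the shared exons limit how far UGT1A3, UGT1A4, UGT1A5, UGT1A7, UGT1A9 and UGT1A10 can be separated.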
